A study of Mus musculus with 16 samples.

Results

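Semaphorins, plexins and neuropilins make up one of the large systems by which growing axons, migrating neurons and vessels read their surroundings. Members were taken by gene symbol, as mouse semaphorins of classes 3 to 7, plexins of families A to D and the neuropilins, which gave 31 of the 18193 genes measured: 20 semaphorins, 9 plexins and 2 neuropilins. Levels were not part of that rule, but the family was chosen with earlier results of these data known. Whole-head total RNA of mouse embryos was compared at embryonic day 9.5 (E9.5, n = 6), 11.5 (n = 4) and 13.5 (n = 6) on Affymetrix short oligonucleotide arrays, in a series on early brain development. Strain, sex and genotype are not given in the labels, and no treatment is named. RNA of all stages was purified with the RNeasy Lipid Tissue Mini kit. For biotin labelling, E9.5 and E11.5 RNA went through Affymetrix's one-cycle IVT kit and E13.5 RNA through Ambion's MessageAmp II-Biotin Enhanced, so stage and labelling kit cannot be told apart in either comparison with E13.5. The submitters call the arrays biological replicates, and the labels do not say whether an array held 1 embryo or a pool.

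Semaphorins are secreted or membrane-bound ligands that share a sema domain. Plexins are their signalling receptors and act on small GTPases and the cytoskeleton through a GTPase-activating domain inside the cell. Secreted class 3 semaphorins mostly bind a neuropilin, which forms a complex with an A-type plexin, whereas most membrane-bound semaphorins bind plexins directly. In the embryonic head the system is known for repelling and steering cranial and forebrain axons, for guiding cranial neural crest, and for patterning vessels, since neuropilins also bind vascular endothelial growth factors.

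Levels are given as log2 intensity, where 1 unit is a 2-fold difference. Each gene was read from its brightest probe set (the group of short probes that measures a transcript), so levels are compared between stages and not between genes. Differences were tested with limma over all genes and called at a Benjamini-Hochberg adjusted p under 0.05. Near background here means a stage mean below the lower quartile of all probe sets (3.58). No member was near background at any stage on its brightest probe set. Some of the other probe sets described below were, at 1 or more stages. Of the 78 probe sets naming members, 6 genes had 1 and 25 genes had several. Both neighbouring comparisons use the E11.5 arrays, so an error in those arrays enters them with opposite signs.

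The head's cell makeup changed along with the stages. All 12 pan-neuronal genes counted were called higher at E11.5 than at E9.5 (31.0% of all genes were), and their summed intensity ran from 1263 to 2710 at E9.5, 9986 to 11444 at E11.5 and 17870 to 18902 at E13.5. Facial mesenchyme genes summed to 3753 to 4877, 7810 to 8490 and 11382 to 13318, and endothelial genes to 1124 to 1427, 980 to 1050 and 1569 to 1799. To describe the tissue taken, Otx2, a forebrain and midbrain gene, was at 9.58 ± 0.32, 8.85 ± 0.19 and 8.42 ± 0.10 (SD) by stage. The more caudal gene Hoxb4 was at 4.41 ± 0.38, 4.31 ± 0.47 and 5.35 ± 0.25. Otx2 was thus lowest and Hoxb4 highest at E13.5, and whether the tissue taken differed between stages was not tested. In bulk RNA, more cells of a type and more RNA per cell cannot be told apart, and the part of cell makeup in the changes below was not tested. The 12 poly-A spike-in probe sets averaged 8.31 ± 0.24, 5.71 ± 0.19 and 5.44 ± 0.11 by stage. They thus differed most between E9.5 and E11.5, which share a labelling kit, so those stages were not technically alike in this respect. The part of this in the differences was not tested. Among the E11.5 arrays, sample 51 gave the highest value for 15 of 31 members, against 25.7% of all genes. The E13.5 titles carry the prefixes B62 and B63 (n = 3 each), whose arrays did not overlap for Nrp2, Plxnb3 and Sema4g, at 0.08, -0.13 and -0.14 (B62 minus B63). The share of all genes separated in this way was not counted, so these genes are not read as a difference between prefixes.

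From E9.5 to E11.5 the family moved mostly upward: 18 of 31 members were called higher, 3 lower and 10 were not called. Of all 18193 genes, 31.0% were called higher and 26.9% lower in that comparison. The median difference over members was 0.53, and over all genes 0.02. At least 2-fold higher were 6 semaphorins (Sema3f, Sema6c, Sema4g, Sema6d, Sema7a and Sema4c) and no receptor, where 6.08% of all genes were called at least 2-fold higher. None of the 31 fell by that much, against 4.79% of all genes. For 18 members every E11.5 array lay above, or every one below, all E9.5 arrays, which held for 37.7% of all genes.

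From E11.5 to E13.5 the directions were mixed. Here 12 members were called higher, 8 lower and 11 were not called, beside 27.9% and 27.0% of all genes. At least 2-fold higher were Nrp2 and Sema5a, and at least 2-fold lower were Sema3f and Sema6c, with 5.78% and 3.8% of all genes past the same limits. The median member difference was 0.19, against 0.00 over all genes, and 18 members did not overlap, against 43.0% of all genes. Across the whole interval, E13.5 against E9.5, 24 members were called higher and 2 lower (Plxna1 and Sema4d), beside 32.7% and 29.1% of all genes. At least 2-fold higher were 8 members (9.93% of all genes), 0 were at least 2-fold lower (7.08%), and 24 did not overlap (44.8%). In that comparison the median was 0.66 for members and 0.01 for all genes.

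**Figure D1:**
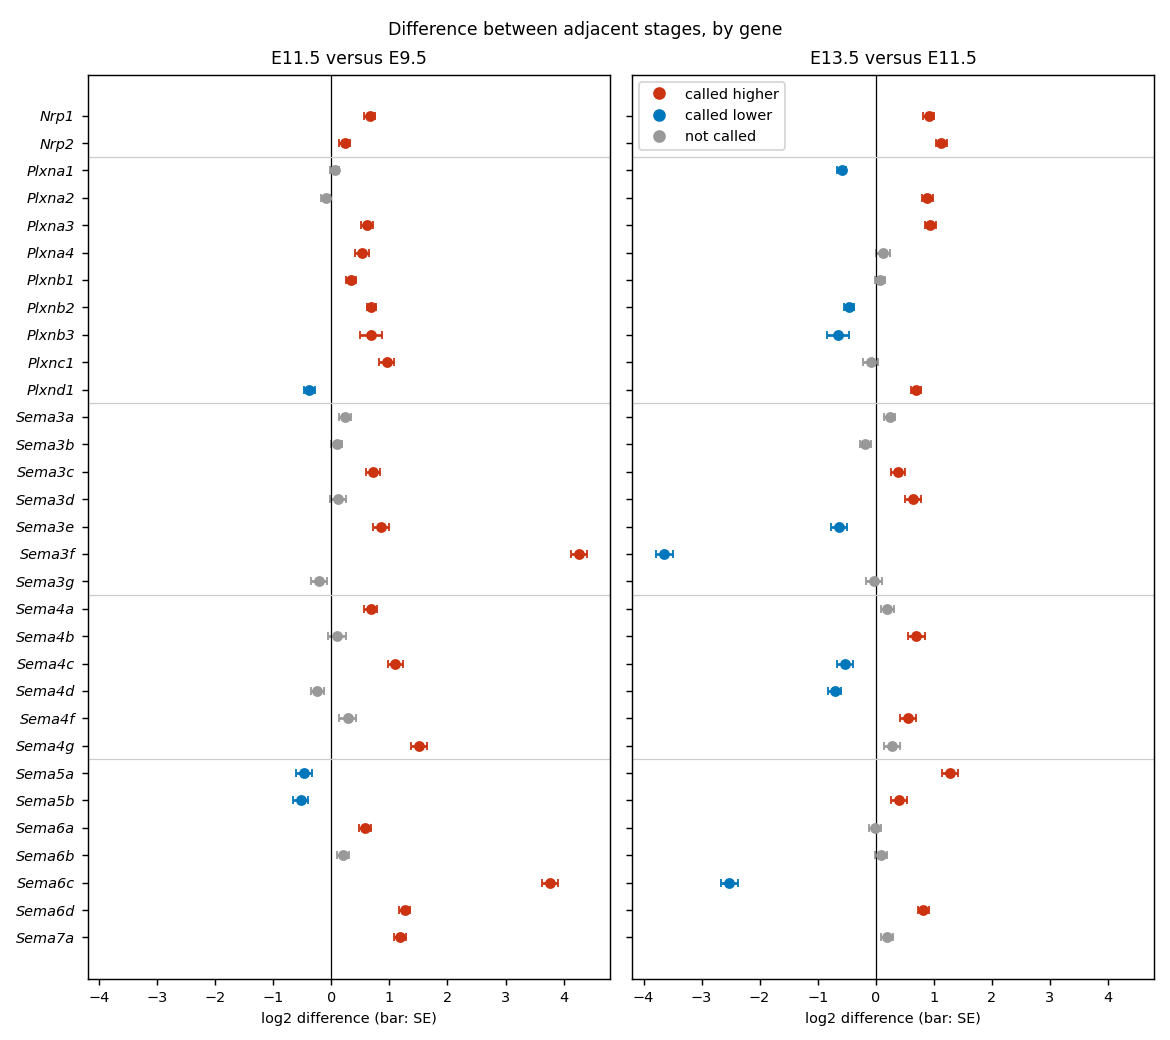
Log2 difference of each of the 31 genes between neighbouring stages (left E11.5 minus E9.5, right E13.5 minus E11.5), with bars for the standard error and colours for the limma call; grey lines separate the classes. Most points lie right of 0 in the left panel, while the right panel holds points on both sides; Sema3f (4.26 and -3.64) and Sema6c (3.77 and -2.52) lie farthest out.

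The neuropilins, Nrp1 and Nrp2, were called higher in each neighbouring comparison, as were Plxna3, Sema3c and Sema6d, and 7.73% of all genes. Another Sema3c probe set was called lower in the first step (-0.47), and 2 other Sema6d probe sets lower in the second (-0.59 and -0.49). The RefSeq sequence upstream of these 5 genes is shown to let their start regions be read side by side: the 250 bases before an annotated start, 5′ to 3′ on the gene's strand, in build GRCm38.p6. Capitals mark each GC box, GGGCGG on either strand (CCGCCC when read on the other), and adjoining boxes run together. The windows are chr8:128358823-128359072 for Nrp1, chr1:62703067-62703316 for Nrp2, chrX:74328816-74329065 for Plxna3, chr5:17574566-17574815 for Sema3c and chr2:124089719-124089968 for the first of the Sema6d starts, all on the plus strand.
Nrp1: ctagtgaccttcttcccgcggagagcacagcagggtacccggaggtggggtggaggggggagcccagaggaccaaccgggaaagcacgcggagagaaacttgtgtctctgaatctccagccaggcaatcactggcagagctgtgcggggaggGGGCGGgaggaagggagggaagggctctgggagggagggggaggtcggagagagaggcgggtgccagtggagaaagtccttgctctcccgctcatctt
Nrp2: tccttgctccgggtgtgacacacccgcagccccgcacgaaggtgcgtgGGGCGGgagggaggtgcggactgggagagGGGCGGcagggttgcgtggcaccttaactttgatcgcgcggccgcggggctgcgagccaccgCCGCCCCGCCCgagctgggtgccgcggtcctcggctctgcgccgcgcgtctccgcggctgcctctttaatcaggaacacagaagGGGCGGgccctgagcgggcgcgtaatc
Plxna3: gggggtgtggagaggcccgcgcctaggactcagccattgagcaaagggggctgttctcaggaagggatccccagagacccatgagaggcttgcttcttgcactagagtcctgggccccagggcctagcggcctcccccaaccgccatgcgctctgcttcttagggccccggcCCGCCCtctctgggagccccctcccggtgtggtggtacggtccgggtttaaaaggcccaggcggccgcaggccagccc
Sema3c: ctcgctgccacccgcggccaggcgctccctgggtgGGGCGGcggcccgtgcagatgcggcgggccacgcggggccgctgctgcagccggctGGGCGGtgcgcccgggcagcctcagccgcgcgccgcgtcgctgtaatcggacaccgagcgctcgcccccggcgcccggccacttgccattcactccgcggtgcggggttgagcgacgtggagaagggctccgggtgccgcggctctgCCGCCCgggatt
Sema6d: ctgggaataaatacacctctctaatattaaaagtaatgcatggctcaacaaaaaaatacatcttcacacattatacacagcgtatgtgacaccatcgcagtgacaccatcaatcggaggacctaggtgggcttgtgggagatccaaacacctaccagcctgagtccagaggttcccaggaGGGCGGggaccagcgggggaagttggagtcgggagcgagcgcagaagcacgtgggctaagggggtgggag

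Each of these windows held a GC box: 1 in Nrp1, 5 in Nrp2, 1 in Plxna3, 3 in Sema3c and 1 in Sema6d. The second Sema6d window held none of them. Their GC content was 64.4%, 72.4%, 68.0%, 78.4% and 52.4% in that order. Among all members, 26 had at least 1 window in the RefSeq table, 37 windows in all, because 8 genes had more than 1. GC boxes stood in 27 of those 37 windows (73.0%), against 32.7% of 32851 windows of any gene and 42.6% of 21262 protein-coding ones. TATAAA was found in 0 of 37 windows and in 12.4% of all windows, and CCAAT in 18.9% against 33.8%. The E-box CAGCTG was in 16.2% of member windows and 13% of all windows, and CATCTG in 5.41% and 14.4%. The median GC content was 64.0% in member windows and 52.4% in all. A match here is a match of letters on either strand and no evidence of binding.

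Nrp1, the co-receptor best known for binding Sema3a and VEGF-A, rose at each step. Its E9.5 arrays ran from 7.27 to 7.72 (median 7.60), samples 33, 36, 51 and 52 of E11.5 stood at 8.04, 8.21, 8.34 and 8.21, and the E13.5 arrays ran from 9.04 to 9.27 (median 9.09). No array of one stage reached into the range of another. The first step was 0.66 ± 0.09 (SE, 1.58-fold, adjusted p = 3.2e-06) and the second 0.91 ± 0.09 (adjusted p = 4.4e-08). All 3 other Nrp1 probe sets were called higher in the second step (1.55 to 1.78), while in the first step 1 was called higher and 2 were not called.

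Nrp2, the preferred co-receptor of Sema3f and a VEGF-C receptor, moved mostly in the later step on its brightest probe set. It ran from 7.40 to 7.85 (median 7.65) at E9.5, stood at 7.77, 7.69, 7.99 and 7.97 at E11.5 and ran from 8.89 to 9.04 (median 9.0) at E13.5. E9.5 and E11.5 overlapped, and E13.5 lay above every earlier array. The first step of 0.23 ± 0.09 passed narrowly (adjusted p = 0.0327), and it was no longer called without any one of E9.5 samples 19 and 22 or E11.5 samples 51 and 52 (differences of 0.18 to 0.21, adjusted p 0.0628 to 0.112). Of the 3 other probe sets, 1 was called higher in the first step (0.72, adjusted p = 1.1e-05) and 2 were not called (-0.06 each). That 1 rose by less in the second step (0.31). On the brightest probe set the second step was 1.13 ± 0.09 (adjusted p = 1.2e-09), and all 3 others rose there too, by 0.31 to 1.34. Of 10 endothelial genes, a cell type known to carry neuropilins, 7 were called higher and 1 lower in that step, where 27.9% and 27.0% of all genes were. Facial mesenchyme genes went both ways, with 4 of 10 higher, 3 lower and a median of -0.01. Also called higher were 9 of 12 pan-neuronal, 9 of 10 skeletal muscle and 7 of 8 cartilage genes. So were 8 of 10 surface ectoderm and 8 of 10 macrophage genes, with at most 1 lower in each of these lists. Of neural progenitor genes, 2 of 9 were higher and 6 lower, and 6 of 6 erythroid genes were lower. Which cells carried the Nrp2 rise was not tested. Kdr and Flt1 encode VEGF receptors of endothelium, and Kdr is already among those 10 endothelial genes. Both were called higher from E11.5 to E13.5, by 0.81 and 0.74, while Flt4, which encodes a VEGF-C receptor, was called lower (-0.52).

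**Figure D2:**
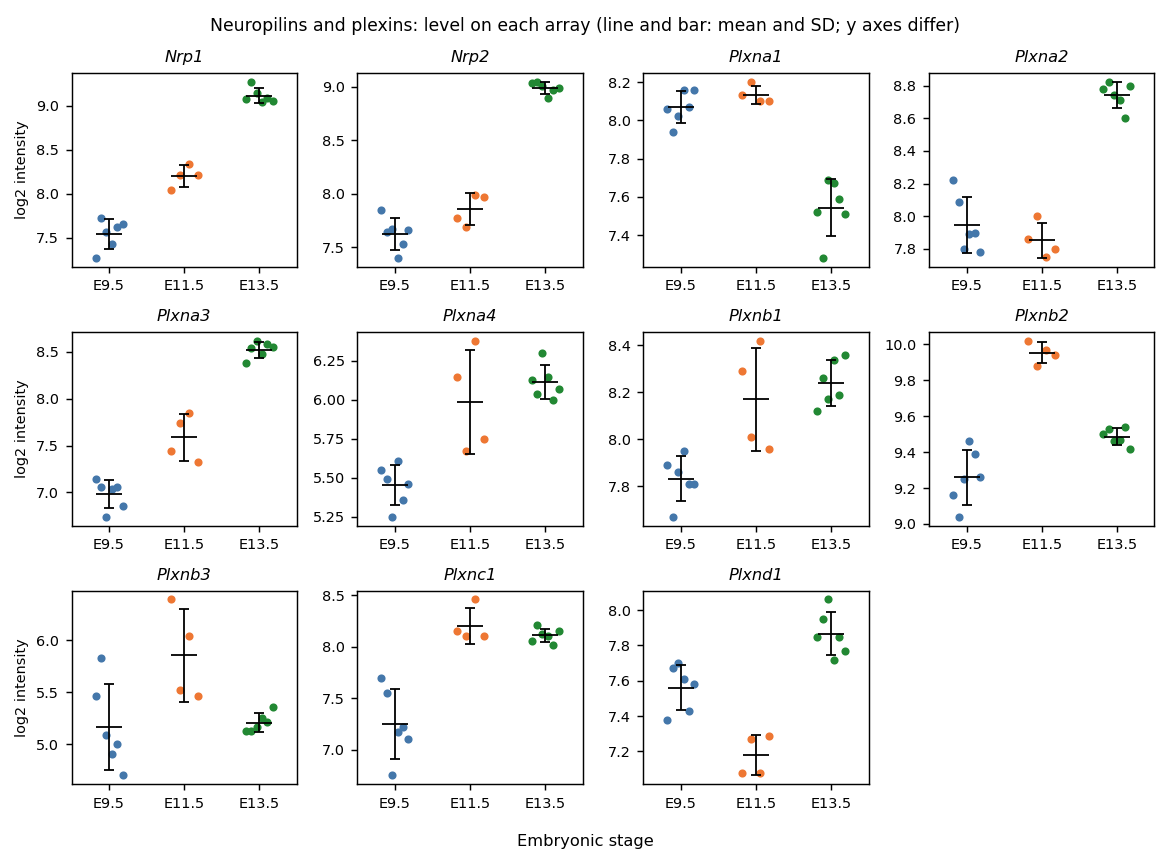
Log2 intensity of each neuropilin and plexin on each of the 16 arrays by stage; points are arrays, the line and bar are the mean and SD, and the y axes differ. Nrp1, Nrp2 and Plxna3 climb to E13.5, Plxna2 stays flat to E11.5 and then rises, Plxna1 drops at E13.5, and Plxnd1 is lowest at E11.5.

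Of 9 plexins, 6 were called higher and 1 lower from E9.5 to E11.5, where 31.0% and 26.9% of all genes were. From E11.5 to E13.5, 3 were called higher and 3 lower, near the all-gene shares of 27.9% and 27.0%. The A-type plexins, which pair with neuropilins for class 3 signals and bind class 6 semaphorins directly, did not move as a block. Plxna3 rose at each step: its arrays ran from 6.74 to 7.14 (median 7.05) at E9.5, stood at 7.44, 7.74, 7.85 and 7.32 at E11.5 and ran from 8.38 to 8.62 (median 8.55) at E13.5. The stages did not overlap, with differences of 0.61 ± 0.10 (SE, adjusted p = 3.9e-05) and 0.94 ± 0.10 (adjusted p = 1.7e-07). The second Plxna3 probe set rose in the first step (0.44) and was not called in the second (-0.08).

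Plxna2 changed in the later step. Its arrays covered 7.78 to 8.22 (median 7.89) at E9.5 and 7.86, 8.0, 7.75 and 7.80 at E11.5, which overlap, and 8.60 to 8.82 (median 8.76) at E13.5, above all of them. The second step was 0.89 ± 0.09 (SE, adjusted p = 5.7e-08), and its 3 other probe sets also rose there, by 0.61 to 1.65. In the first step the brightest Plxna2 probe set was not called (-0.09), while 1 of the others was called higher (0.40) and 1 lower (-0.85).

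Plxna1 went the other way, from 8.07 ± 0.09 (SD) and 8.13 ± 0.05 to 7.54 ± 0.15 at E13.5, a fall of -0.59 ± 0.08 (SE, adjusted p = 4.4e-06) that its second probe set shared (-0.54). Plxna4, a receptor for Sema3a and Sema6a, was higher at E11.5 by 0.53 ± 0.12 (adjusted p = 5.7e-04) and not called in the next step (0.13). Its second probe set gave -0.25 without a call in the first step and was called higher in the second (0.49, adjusted p = 6.1e-04). At E13.5, Plxna2, Plxna3 and Plxna4 were called above their E9.5 levels by 0.80, 1.54 and 0.66, and Plxna1 below its own, at -0.53.

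The B-type plexins, among them receptors for class 4 semaphorins that activate RhoA through guanine nucleotide exchange factors, were all called higher at E11.5. Plxnb2, which has a known role in neural tube closure, went from 9.26 ± 0.15 (SD) to 9.95 ± 0.06 and back to 9.49 ± 0.05, a rise of 0.69 ± 0.08 (SE) and a fall of -0.46 ± 0.08, and it has 1 probe set. Plxnb3 followed with 0.69 ± 0.19 and -0.65 ± 0.19, but its E11.5 arrays spread from 5.46 to 6.39 and its other probe set was not called in either step. Plxnb1, the Sema4d receptor, was called higher at E11.5 by 0.34 ± 0.09 and not called in the next step (0.07), while its second probe set was not called in the first step (0.08) and was called higher in the second (0.32). The exchange factor genes Arhgef12 and Arhgef11 were called higher at E11.5 as well, by 1.37 and 0.22.

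Plxnc1, the receptor of Sema7a, had the largest first-step rise among plexins. At E9.5 it ran from 6.75 to 7.70 (median 7.19), at E11.5 it stood at 8.15, 8.10, 8.46 and 8.10, and at E13.5 it ran from 8.02 to 8.21 (median 8.11). All E11.5 arrays lay above all E9.5 arrays (0.95 ± 0.13, SE, adjusted p = 4.1e-06), and E11.5 and E13.5 overlapped (-0.09, not called). Its 5 other probe sets, dimmer, disagreed in the first step: 1 was called higher (0.48), 1 lower (-0.60) and the rest were not called.

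Plxnd1, an endothelial receptor that binds Sema3e without a neuropilin, was the single plexin called lower at E11.5. It went from 7.56 ± 0.13 (SD) to 7.18 ± 0.12 and then 7.87 ± 0.12, differences of -0.38 ± 0.09 (SE, adjusted p = 9.4e-04) and 0.69 ± 0.09 (adjusted p = 1.4e-06). Only 1 probe set measured it. Endothelial markers had their lowest sums at E11.5 too, with Tek, an endothelial receptor, at 7.01 ± 0.20 (SD), 6.08 ± 0.20 and 6.53 ± 0.08, whereas Cdh5 ran at 5.14 ± 0.28, 5.46 ± 0.11 and 5.42 ± 0.08. Of those 10 markers, 1 was called higher and 3 lower in the first step, beside 31.0% and 26.9% of all genes.

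Of the 7 secreted class 3 semaphorins, 3 were called higher and 0 lower from E9.5 to E11.5, beside 31.0% and 26.9% of all genes. In the next step 2 were called higher and 2 lower, near the 27.9% and 27.0% of all genes. Sema3f, a repellent acting through Nrp2, gave the widest swing of any member. Its arrays ran from 7.18 to 8.14 (median 7.60) at E9.5, stood at 11.97, 11.65, 12.28 and 11.60 at E11.5 and ran from 8.15 to 8.29 (median 8.24) at E13.5. E11.5 was far above both neighbours on every array, with differences of 4.26 ± 0.14 (SE, adjusted p = 2.3e-14) and -3.64 ± 0.14 (adjusted p = 4.9e-14). That probe set carries the maker's suffix for probes that may also match other transcripts. The 2 other Sema3f probe sets moved far less, by 0.24 and 0.59 in the first step and by -0.38 (called) and 0.16 (not called) in the second.

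Sema3e, the Plxnd1 ligand, was called higher at E11.5 and lower at E13.5. It ran from 4.17 to 4.58 (median 4.49) at E9.5, stood at 5.58, 4.64, 5.67 and 5.32 at E11.5 and ran from 4.64 to 4.81 (median 4.64) at E13.5. E11.5 lay above all E9.5 arrays (0.85 ± 0.14, SE, adjusted p = 3.4e-05), but sample 36 of E11.5 fell among the E13.5 arrays (-0.63 ± 0.14, adjusted p = 9.2e-04). None of the other 3 probe sets was called in the first step, and 1 of them was called higher in the second (1.0), against the brightest.

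Sema3c, which attracts cardiac neural crest cells and some cortical axons, rose at each step. Its arrays ran from 6.78 to 7.72 (median 7.19) at E9.5, stood at 8.01, 7.85, 7.86 and 7.93 at E11.5 and ran from 8.19 to 8.36 (median 8.32) at E13.5. The stages did not overlap, with 0.72 ± 0.12 (SE, adjusted p = 3.6e-05) and 0.38 ± 0.12 (adjusted p = 0.0109). Its dimmer probe set was called lower in the first step (-0.47) and was not called in the second (0.20).

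Of the remaining class 3 genes, Sema3d, a guide of neural crest and vessels, was called in the later step, from 4.19 ± 0.25 (SD) and 4.30 ± 0.26 to 4.95 ± 0.21. A second Sema3d probe set was called the opposite way there (-0.50), from 3.85 at E11.5 to 3.34 at E13.5, which is near background. Sema3a, the classic axon repellent acting through Nrp1, was at 7.71 ± 0.22, 7.94 ± 0.13 and 8.19 ± 0.11, called in neither step (adjusted p = 0.0608 and 0.0555) and called higher over the whole interval (0.48 ± 0.09, SE, adjusted p = 1.5e-04). A second Sema3a probe set went against that, at -0.95 in the first step and -0.91 over the interval. Sema3b and Sema3g were called in none of the comparisons, with differences between -0.24 and 0.09, although a second Sema3b probe set was called lower over the interval (-0.30, adjusted p = 0.0182).

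**Figure D3:**
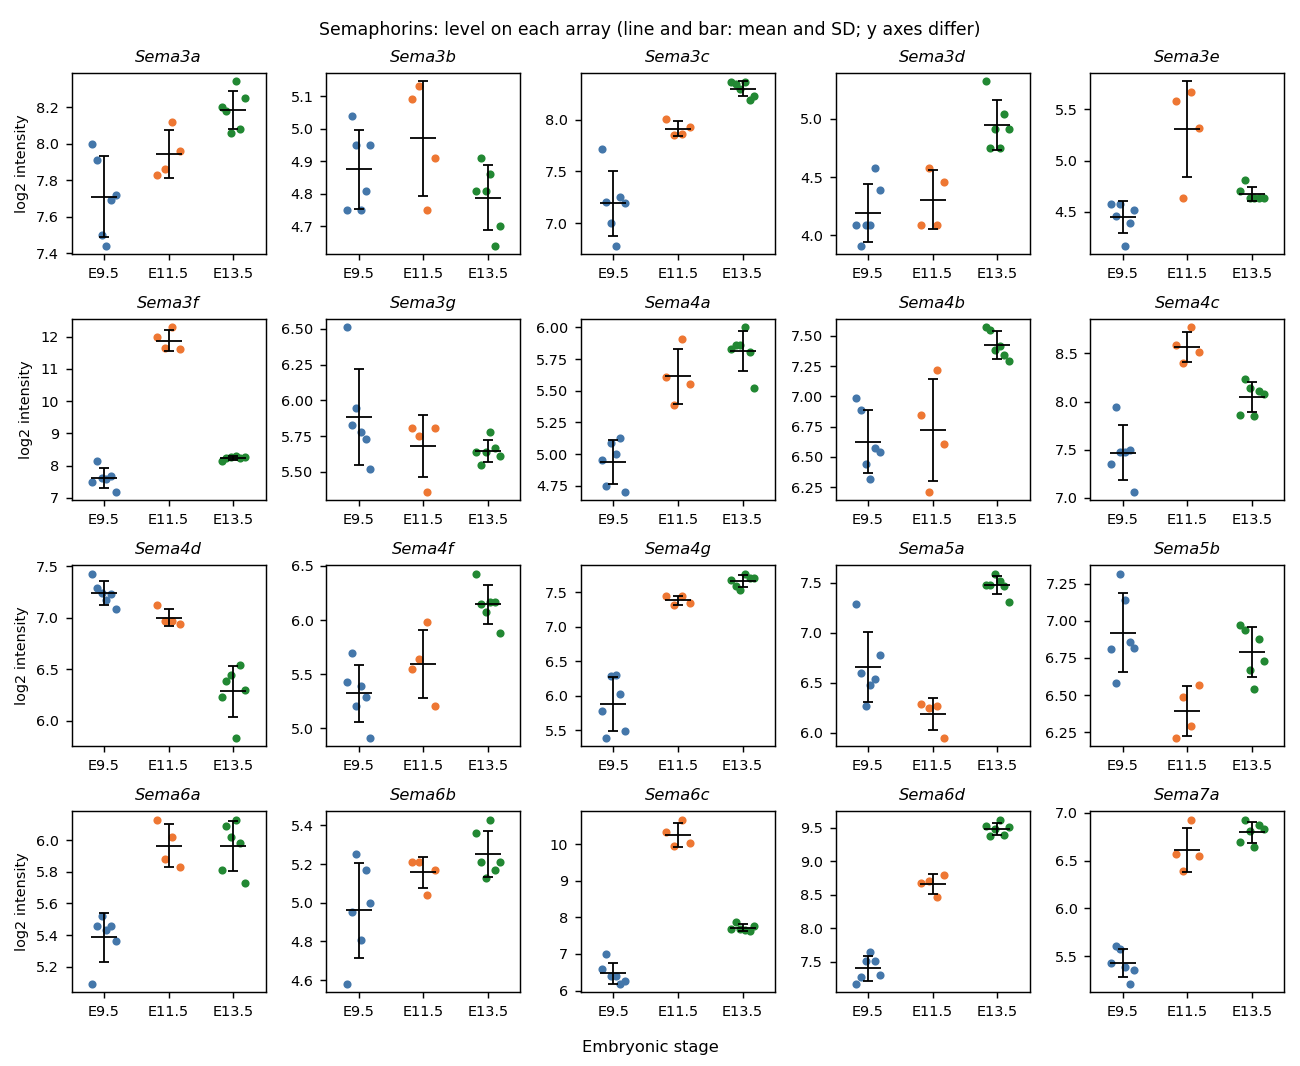
Log2 intensity of each of the 20 semaphorins on each of the 16 arrays by stage; points are arrays, the line and bar are the mean and SD, and the y axes differ. Sema3f and Sema6c stand out at E11.5, Sema6d, Sema4g and Sema7a climb, Sema4d falls, and Sema5a and Sema5b are lowest at E11.5.

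Class 4 semaphorins are membrane proteins that signal through B-type and D-type plexins. In the first step 3 of 6 were called higher and 0 lower (31.0% and 26.9% of all genes). In the second 2 were higher and 2 lower (27.9% and 27.0%), and over the whole interval 5 were higher and 1 lower (32.7% and 29.1%). Sema4g, which like Sema4c binds Plxnb2, had the largest rise of the class. It ran from 5.39 to 6.30 (median 5.90) at E9.5, stood at 7.44, 7.31, 7.44 and 7.35 at E11.5 and ran from 7.53 to 7.77 (median 7.69) at E13.5. All E11.5 arrays were above all E9.5 arrays (1.51 ± 0.14, SE, adjusted p = 2.3e-08), and the smaller further difference was not called (0.28, adjusted p = 0.112) although the arrays did not overlap. It has 1 probe set.

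Sema4c, a Plxnb2 ligand, was highest at E11.5. Its arrays ran from 7.06 to 7.94 (median 7.48) at E9.5, stood at 8.59, 8.40, 8.77 and 8.52 at E11.5 and ran from 7.85 to 8.23 (median 8.09) at E13.5. E11.5 lay above both other stages on every array, by 1.10 ± 0.13 (SE, adjusted p = 3.0e-07) over E9.5, and E13.5 was lower again by -0.53 ± 0.13 (adjusted p = 0.00152). It too has 1 probe set.

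Sema4d, the Plxnb1 ligand, was the semaphorin called lower at E13.5 than at E9.5. It ran from 7.08 to 7.43 (median 7.23) at E9.5, stood at 7.12, 6.97, 6.97 and 6.94 at E11.5 and ran from 5.83 to 6.54 (median 6.34) at E13.5. The first difference was not called (-0.24, adjusted p = 0.0648), and E13.5 lay below all earlier arrays (-0.71 ± 0.11, SE, adjusted p = 1.4e-05). In that step its 2 other probe sets gave 0.18 and -0.20, neither of them called. Sema4a was called higher at E11.5 (0.68 ± 0.11), Sema4b and Sema4f at E13.5 (0.70 ± 0.15 and 0.55 ± 0.14), and the second probe sets of these 3 genes were called in the same direction in those steps.

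The 7 semaphorins of classes 5, 6 and 7 are held in the membrane by a transmembrane segment or, for Sema7a, a lipid anchor, and class 6 proteins bind A-type plexins. In the first step 4 were called higher and 2 lower, the latter near the all-gene share (31.0% and 26.9%), and in the second 3 were higher and 1 lower (27.9% and 27.0%). Sema6c, a membrane protein able to collapse growth cones, peaked at E11.5 as Sema3f did. It ran from 6.19 to 6.99 (median 6.40) at E9.5, stood at 10.32, 9.94, 10.67 and 10.03 at E11.5 and ran from 7.63 to 7.88 (median 7.69) at E13.5. The stages did not overlap (3.77 ± 0.14, SE, adjusted p = 9.1e-14, then -2.52 ± 0.14, adjusted p = 1.1e-11), and its second probe set had a smaller peak of the same shape (1.30 and -1.57), while the third was called in neither step.

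Such a peak was rare on these arrays: 23 of 18193 genes, Sema3f and Sema6c among them, were at least 4-fold higher at E11.5 than at both other stages, a limit chosen after these values were seen. Of the 19 with more than 1 probe set, Sema6c was the 1 gene with another probe set at least 2-fold higher at E11.5 than at both.

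Sema6d, a ligand of A-type plexins in heart and brain, rose at each step. Its arrays ran from 7.17 to 7.64 (median 7.41) at E9.5, stood at 8.68, 8.70, 8.46 and 8.80 at E11.5 and ran from 9.38 to 9.62 (median 9.50) at E13.5. The stages were well apart, by 1.26 ± 0.10 (SE, adjusted p = 8.9e-10) and 0.82 ± 0.10 (adjusted p = 3.7e-07). Its 3 dimmer probe sets gave 1.07, 0.36 and -0.16 in the first step. In the second, 2 were called lower (-0.59 and -0.49) and 1 higher (0.41), the last being near background at E11.5 (3.46).

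Sema5a, which can attract or repel axons depending on the proteoglycans it meets, dipped and then rose. It ran from 6.27 to 7.29 (median 6.57) at E9.5, stood at 6.29, 6.25, 6.27 and 5.95 at E11.5 and ran from 7.31 to 7.59 (median 7.48) at E13.5. E9.5 and E11.5 overlapped (-0.47 ± 0.14, SE, adjusted p = 0.00632), and every E13.5 array was above every earlier one (1.28 ± 0.14 over E11.5, adjusted p = 1.2e-07). The second-brightest probe set rose by 1.23 in the later step as well, but was called higher in the first (0.66). So was the third Sema5a probe set (0.35), which was near background at E9.5 (3.31). Sema5b, its relative, showed -0.53 ± 0.13 and 0.40 ± 0.13, and its second probe set had the first change (-0.63) and not the second (-0.08).

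Sema7a, the lipid-anchored Plxnc1 ligand, was higher at E11.5 by 1.18 ± 0.10 (SE, adjusted p = 5.5e-09) and not called afterwards (0.19), and its other probe set was not called in the first step (0.16). Sema6a, known in thalamic axon guidance, was higher at E11.5 by 0.58 ± 0.10 and not called in the next step on its brightest probe set (-0.01), whereas 2 others were called lower at E13.5 (-0.79 and -0.49). Sema6b was called in neither step and higher over the interval (0.29 ± 0.10, adjusted p = 0.0129).

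Several ligands could be set beside the receptor they are known to bind. On their brightest probe sets, Sema7a and Plxnc1 were both called higher at E11.5 (1.18 and 0.95) and neither was called in the next step. The other Sema7a probe set was not called at E11.5 (0.16) and was called lower in the next step (-0.28). Its means were 3.46, 3.62 and 3.34 by stage, so it was near background at E9.5 and E13.5. Other Plxnc1 probe sets went both ways in the first step (0.48 and -0.60). Another was called lower in the next (-0.44), reaching 3.32 at E13.5, near background. Sema4c and Plxnb2 were both highest at E11.5, with first steps of 1.10 and 0.69 and second steps of -0.53 and -0.46. Sema4g, which also binds Plxnb2, was called higher at E11.5 (1.51) and was not called in the next step (0.28). Sema3f and Nrp2 had opposite signs in the second step on their brightest probe sets (-3.64 and 1.13). Sema3e and Plxnd1 had opposite signs on their brightest probe sets, with Sema3e at 0.85 and then -0.63 and Plxnd1 at -0.38 and then 0.69. No other Sema3e probe set was called in the first step, and 1 was called higher in the second (1.0), the sign of Plxnd1 there. Sema4d and Plxnb1 parted over the whole interval, at -0.95 ± 0.10 (SE) and 0.41 ± 0.08. Over that interval the 2 other Sema4d probe sets were not called (-0.20 and -0.10), and the other Plxnb1 probe set was called higher (0.41). The pairs were picked from known binding after the values were seen, share their arrays, and carry no test of their own.

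**Figure D4:**
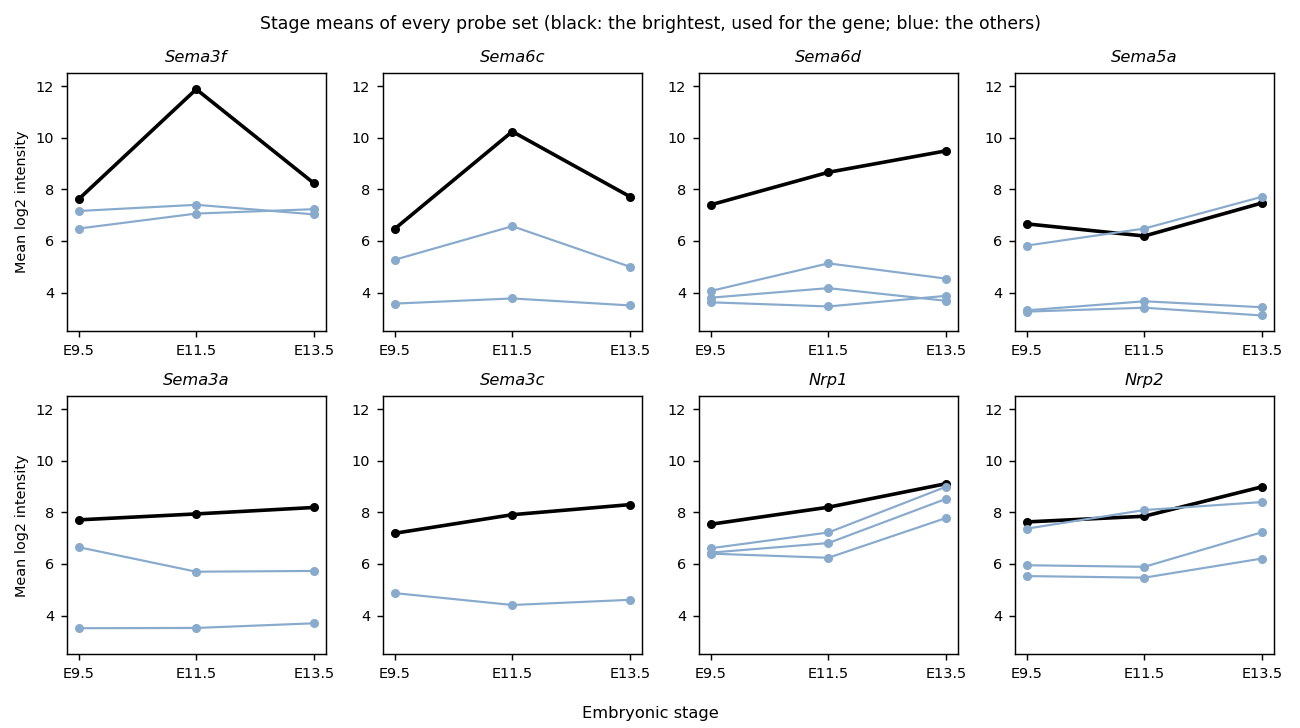
Mean log2 intensity by stage of every probe set of 8 members; black is the brightest probe set, used for the gene, and blue the others. The large Sema3f peak stands in the black line alone, Sema6c has a second, smaller peak, all lines of Nrp1 and Nrp2 rise from E11.5 to E13.5, and the Sema3a and Sema3c lines part in the first step.

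How far a call depended on the probe set differed between genes. Of 17 members called in the first step and measured by several probe sets, 10 had another probe set called in the same direction, 3 had one called in the opposite direction (Plxnc1, Sema3c and Sema5a) and 5 had no other call (Plxna4, Plxnb1, Plxnb3, Sema3e and Sema7a). A gene can stand in both of the first groups. In the second step, also over 17 members, the counts were 10, 4 (Sema3d, Sema3e, Sema5a and Sema6d) and 5 (Plxna3, Plxnb3, Sema3c, Sema4d and Sema5b). The neuropilins, Plxna2 and Plxna1 were the receptors whose other probe sets all had the brightest one's call in the second step. Probe sets of a gene can sit on different transcript ends, and the part of this in the differences was not tested.

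Genes that carry the signal onward were counted from a list of 60 co-receptors, other ligand receptors and intracellular partners, 59 of them measured. From E9.5 to E11.5, 33 were called higher, 14 lower and 12 were not called, with a median of 0.40, where 31.0% of all genes were called higher and 26.9% lower. From E11.5 to E13.5 the counts were 27, 12 and 20, with a median of 0.13, beside 27.9% and 27.0% of all genes. The counts called lower were thus near or below the all-gene share. The largest first-step rises were those of the adhesion molecules Chl1 (2.95) and Cntn2 (2.82), the kinase gene Gsk3b (2.16) and the Cdk5 activator gene Cdk5r1 (2.04). Chl1 was near background at E9.5 (3.02), so the size of its difference there is uncertain. The other Chl1 probe sets gave 0.39 (called), 0.14 and 0.18 (not called) in that step. Of the other Gsk3b probe sets, 1 was called lower in that step (-0.82) and 3 higher (0.28, 1.25 and 0.59).

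The CRMP family, cytoplasmic proteins first known as mediators of the Sema3a response, held 4 genes called higher in the first step, with Crmp1 at 1.83 ± 0.12 (SE), Dpysl2 at 1.21 ± 0.08, Dpysl3 at 1.43 ± 0.13 and Dpysl4 at 1.63 ± 0.12, each with adjusted p of 8.0e-09 or less, while Dpysl5 was called lower (-0.48 ± 0.14). Called higher in the second step were Dpysl3 (1.57 ± 0.13), Dpysl5 (1.03), Crmp1 (0.56) and Dpysl4 (0.35), while Dpysl2 was not called (-0.03). There the other Dpysl4 probe sets (-0.36 and -0.42) and the other Dpysl5 probe set (-0.70) were called lower. The other Dpysl3 probe sets gave 2.34 (called) and -0.24 (not called). Of all genes, 31.0% were called higher in the first step and 27.9% in the second. L1cam, which joins Nrp1 in the Sema3a receptor, was higher by 1.88 and then by 1.41. The second Dpysl2 probe set was not called in either step (-0.22 and 0.15). In the first step the 12 pan-neuronal genes rose by a median of 2.51.

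Falls in the first step were led by Mical1 (-1.17), an oxidase that takes actin apart downstream of A-type plexins, Met (-0.91), a partner of Plxnb1, Flt4 (-0.90), the VEGF-C receptor of lymphatic vessels, and Cd44 (-0.78). In the second step Chl1 (2.49), Cd44 (1.65), Dpysl3 (1.57) and Cdk5r1 (1.43) rose most, and Ranbp9 (-1.22), Vegfc (-1.11), Itgb1 (-0.82), a subunit of the Sema7a receptor, and Vegfa (-0.81) fell most. In that step the second Vegfa probe set was called lower too (-0.69), neither other Vegfc probe set was called (0.33 and -0.41), and of 5 other Itgb1 probe sets 1 was called lower (-0.34) and 4 were not called. The other Chl1 probe sets gave 1.05 (called), 0.10 and 0.04 (not called) in the second step. Another Flt4 probe set was called higher in the first step (0.35). Another Cdk5r1 probe set was called lower in the second (-1.16) and another Ranbp9 probe set higher in the second (0.64).

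**Figure D5:**
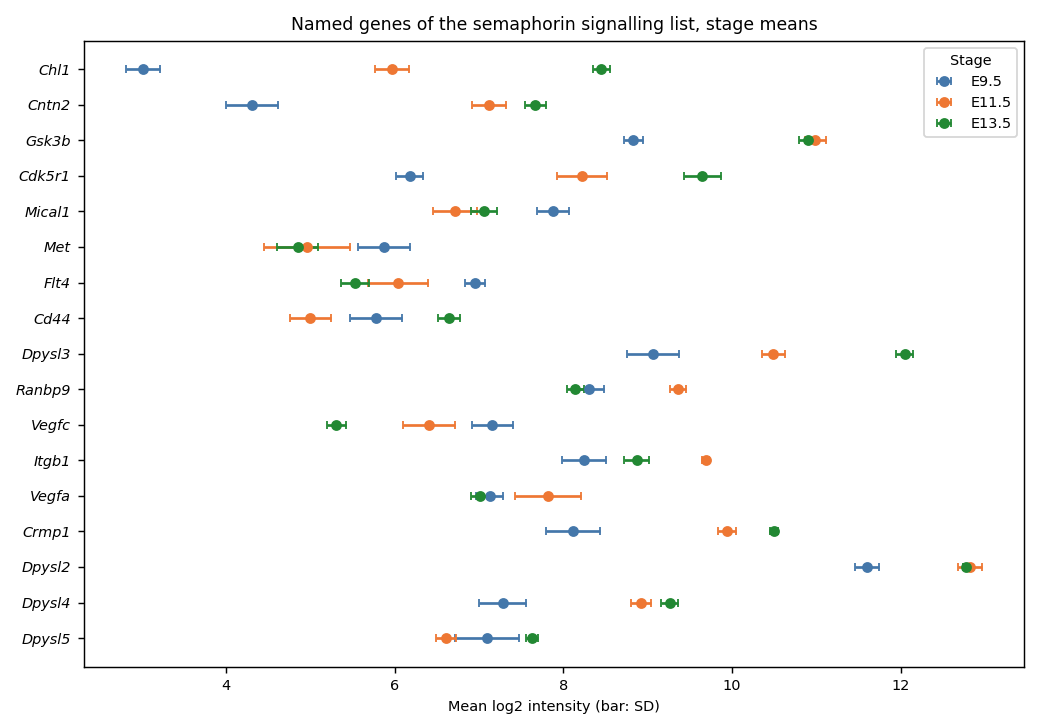
Mean log2 intensity by stage, with SD bars, of the 13 list genes taken as up to 4 largest called rises and up to 4 largest called falls in each neighbouring comparison, and of the CRMP family. Crmp1, Dpysl2, Dpysl3 and Dpysl4 lie higher at E11.5 than at E9.5, Chl1 and Cdk5r1 climb at each stage, and Vegfc and Flt4 descend.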

How the data were processed

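The authors deposited a whole-number intensity per probe set, on the linear scale, from RMA (named in the submitters' processing notes, with the version not stated there). Each array's median was 32, so a value is relative to the array's other transcripts, and precision is limited by the number of arrays. Each value was log2 transformed. After 64 control probe sets, 34945 of 45101 probe sets named 1 gene in the platform annotation, 932 named several and were not used, and 9160 were unnamed there. Each of 18193 genes was read from its probe set with the highest mean over 16 arrays.

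One linear model of all arrays was fitted in R 4.3.3 with limma 3.58.1 (moderated by eBayes), p-values being adjusted after Benjamini-Hochberg over all genes, or over all probe sets where other probe sets are described. The script was tested on simulated data with 100 genes changed by 0.5 and 100 by 1 on the log2 scale. Array values are given for up to 3 members per class with the largest called and non-overlapping difference in a neighbouring comparison. For these, each E11.5 array is given, and E9.5 and E13.5 as range and median. Up to 4 rises and 4 falls of the partner list are named per comparison. The CRMP family, L1cam, Kdr, Flt1, Arhgef11 and Arhgef12 were added after their values were seen, as was Flt4 in the second step. Members and lists were chosen with earlier results of these data known. Alternatives were other probe set choices, normalizations, variance models, offsets and filters, a block for title prefix, and leaving out arrays.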

Additional observations from a re-analysis of the deposited data

Results flagged for a closer look

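In 5 of 93 groups of arrays (31 genes at 3 stages), 1 array stood apart from the others of its stage by Dixon's 95% criterion; chance flags about 1 in 20 groups, or 4.65 here. Sample 51 of E11.5 was highest for Plxnc1, at 8.46 against 8.10 to 8.15 in the other 3, and lowest for Sema3g, at 5.36 against 5.75 to 5.81. Sample 33 of E11.5 was highest for Sema4d, at 7.12 against 6.94 to 6.97. Sample 52 of E11.5 was lowest for Sema5a, at 5.95 against 6.25 to 6.29. Sample B62E7K of E13.5 was highest for Sema3e, at 4.81 against 4.64 to 4.70.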

How the results depend on the processing

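Under the alternatives run, a difference that was called in either setting changed sign only where another probe set was used. Uncalled differences near 0 also changed sign elsewhere: Plxna2 in E11.5 versus E9.5 went from -0.09 to 0.01 without the E9.5 samples 13 and 15, and Sema3b, Sema3g, Sema4b, Sema6a and Plxnb3 did so with quantile normalization or 1 array left out, at values from -0.13 to 0.05. With the mean of all probe sets, E11.5 versus E9.5 turned for Sema3a (-0.23) and Sema5a (0.17), E13.5 versus E11.5 for Sema3e (0.09), and E13.5 versus E9.5 for Plxnc1 (-0.10), Sema3a (-0.08) and Sema6a (-0.11). With the second-brightest probe set, E11.5 versus E9.5 turned for Plxna2 (0.40), Plxna4 (-0.25), Sema3a (-0.95), Sema3c (-0.47), Sema3e (-0.19), Sema4b (-0.45) and Sema5a (0.66). E13.5 versus E11.5 turned for Plxna3 (-0.08), Sema3d (-0.50), Sema4d (0.18), Sema5b (-0.08), Sema6d (-0.59) and Sema7a (-0.28). E13.5 versus E9.5 turned for Sema3a (-0.91), Sema3c (-0.26), Sema3d (-0.01), Sema3e (-0.29), Sema3f (-0.13), Sema6a (-0.47), Sema6c (-0.27) and Sema7a (-0.12). The cause was not tested.

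The count called lower in E11.5 versus E9.5 went from 3 to 5 with the mean and 6 with the second-brightest probe set. In E13.5 versus E9.5 the count higher went from 24 to 15 with the second-brightest, and the count lower from 2 to 4 with quantile normalization and 7 with the second-brightest. Leaving out each array in turn gave 17 to 20 higher and 3 to 4 lower, then 12 to 15 and 8 to 9, and 24 to 25 and 2 to 3 over the whole interval. Without the E9.5 samples 13 and 15, Plxnb2 in E13.5 versus E9.5 went from 0.23 to 0.15 (limma adjusted p = 0.0569) and Sema6b from 0.29 to 0.19 (0.0674), and with quantile normalization Sema6b was at 0.12 (0.307). With the title prefix as a random block, calls were lost for Plxnb2 there (adjusted p = 0.0607), Sema6b there (0.082) and Sema5b in E13.5 versus E11.5 (0.0645). No paired analysis was possible because the replicate numbers only name samples and are not shared between stages in the labels.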
